A study of Mus musculus with 4 samples.

Results

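The genes described here are 10 immediate early genes: Fos, Fosb, Jun, Junb and Jund of the AP-1 family, Egr1, Egr2 and Egr3 of the early growth response family, and Atf3 and Zfp36. They were chosen by gene symbol, as every probe that the platform annotation assigns to one of these names. That gave 10 probes, 1 for each gene, among 26512 probes on the array. All 10 probes were detected on all 4 arrays, so the filter on dim probes removed none of them, and all 10 are among the 9948 genes tested.

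Immediate early genes are switched on within minutes of a growth factor, cytokine or stress signal and need no new protein for it. Signals through the ERK pathway reach many of them by serum response factor and its ETS partners, which bind CArG boxes and neighbouring sites before the genes. JUN and FOS proteins pair to form AP-1, JUNB and ATF3 can temper it, EGR proteins are zinc finger factors that act in monocyte and macrophage differentiation, and ZFP36 (tristetraprolin) marks cytokine messages for decay. FLT3 is a receptor tyrosine kinase of blood progenitors, and its internal tandem duplication, found in acute myeloid leukaemia, leaves it active without ligand and drives STAT5 and ERK signalling.

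RNA came from bone marrow of mice, from the lineage-negative fraction, in which cells bearing mature lineage markers are depleted. The groups were WT FLT3-ITD, with 2 arrays after 48 h of FLT3-ITD signalling, and WT pMIG, with 2 arrays of cells carrying the empty vector pMIG. WT (wild type) is the only genotype label in both groups. The sources used here do not give the strain, age or number of animals, how the cells received the vector, or whether replicates were separate cultures. They also give no time for the pMIG arrays, so a match in time between the groups is not known. The spread behind each p-value is thus that of these samples alone, and may be technical. No array detected the single Flt3 probe (raw 97.2 and 97.3 in FLT3-ITD against 96.1 and 97.2 in pMIG), and since its place in the transcript is not known here it does not check the vector. Of the progenitor markers Cd34 was detected on all 4 arrays and Kit had no probe under that name. The myeloid integrin gene Itgam, the T and natural killer genes Cd3d, Nkg7 and Prf1 and the B lymphoid genes Vpreb1, Vpreb3, Cd79b and Ebf1 were detected on all 4 arrays. Cd3e, Cd3g and Pax5 did not pass the detection filter.

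All values are intensities of Illumina bead arrays, which have an arbitrary linear scale. The median raw intensity of an array was 103.1 and 105.9 in FLT3-ITD against 107.9 and 103.7 in pMIG, with background estimated at 94.7 to 97.9. A log2 signal below is the intensity after background correction, addition of an offset of 16 and quantile normalization. Probes differ in brightness for reasons other than RNA level, so differences between groups, and not signals, are compared between genes.

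All 10 genes read higher in FLT3-ITD than in pMIG on average, by 0.15 to 0.79 on the log2 scale, with a median of 0.50 against -0.02 over all 9948 genes. In 7 of the 10, Junb, Jun, Zfp36, Egr2, Egr1, Fosb and Fos, both FLT3-ITD arrays stood above both pMIG arrays. That was so for 23.8% of all genes, and 50.6% stood apart in either direction. The groups overlapped for Egr3, Atf3 and Jund. With limma's moderated test and Benjamini-Hochberg adjustment over all genes, 0 of the 10 passed an adjusted p of 0.05, where 0.201% of all genes passed (0.181% higher, 0.0201% lower). The same 7 genes had an unadjusted p under 0.05 and were higher, as were 8.93% of all genes (18.0% in either direction). With a variance trend in limma, which shrinks each gene toward genes of like signal, 6 of the 10 passed and were higher, against 5.07% of all genes (5.19% lower, 10.3% in either direction). The genes were chosen with earlier results of these data known, so these shares are a description and carry no test.

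**Figure D1:**
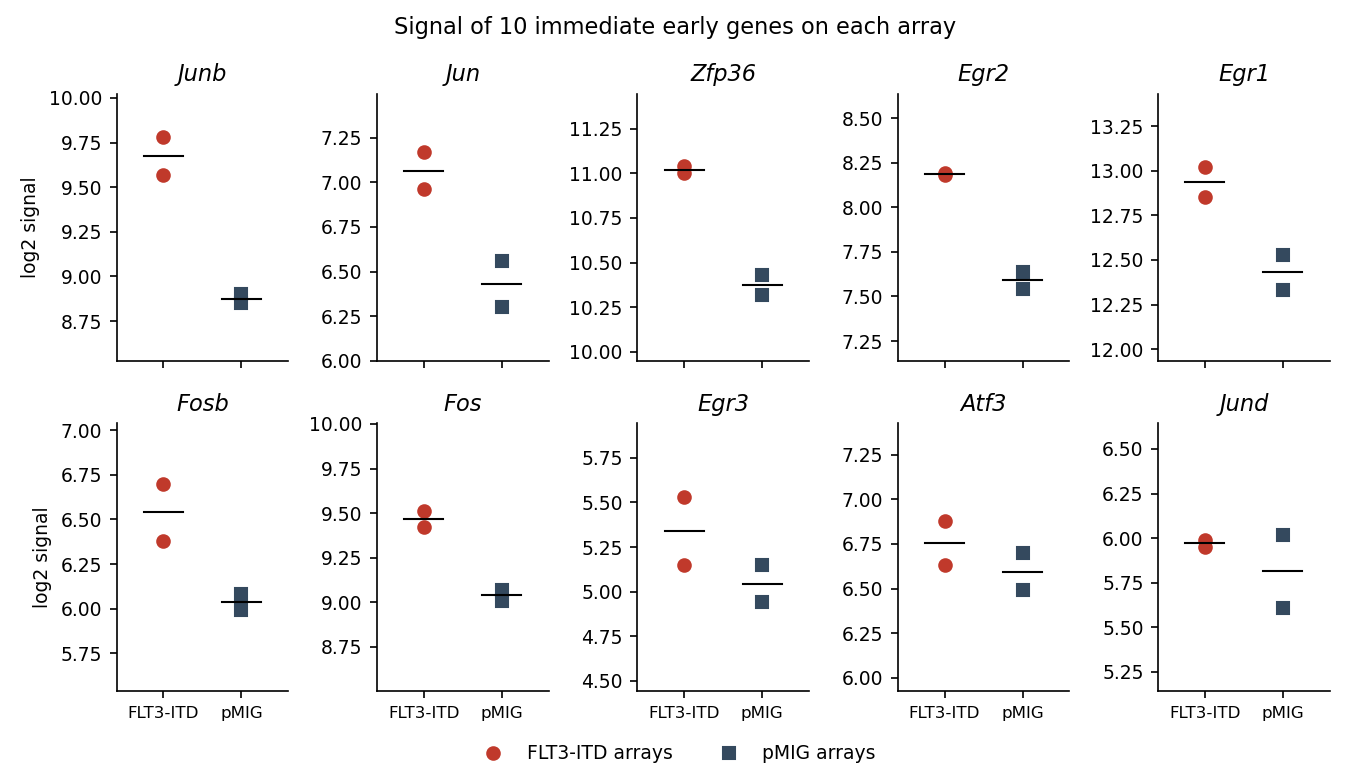
Log2 signal (vertical axis, 1.5 units high in every panel) of the 10 genes on the 2 FLT3-ITD arrays (circles) and the 2 pMIG arrays (squares), with a line at each group's mean. Genes run from the largest difference, 0.79 for Junb, to the smallest, 0.15 for Jund, and the groups overlap in the last 3 panels.

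Junb, Zfp36 and Egr2 had the largest moderated statistics of the 10, and the 250 bases before their start sites are printed here. The CArG box is an element through which some immediate early genes, though not all, are classically read. Sequences are RefSeq's on GRCm38.p6, 5′ to 3′ on the gene's strand, with matches to the motifs named below in capitals. The Junb window is chr8:84978749-84978998, minus strand, the Zfp36 window chr7:28379229-28379478, minus strand, and the Egr2 window chr10:67537619-67537868, plus strand, the middle one of 5 start sites listed for Egr2.
Junb: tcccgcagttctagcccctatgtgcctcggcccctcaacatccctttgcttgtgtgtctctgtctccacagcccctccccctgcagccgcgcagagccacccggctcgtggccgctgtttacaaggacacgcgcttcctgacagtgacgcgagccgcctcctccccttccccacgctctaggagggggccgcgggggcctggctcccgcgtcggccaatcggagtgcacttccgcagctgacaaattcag
Zfp36: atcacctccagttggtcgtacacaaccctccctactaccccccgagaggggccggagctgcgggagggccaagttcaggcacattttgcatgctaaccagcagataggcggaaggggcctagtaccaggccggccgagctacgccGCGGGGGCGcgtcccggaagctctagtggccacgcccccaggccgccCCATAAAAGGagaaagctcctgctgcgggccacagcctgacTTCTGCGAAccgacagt
Egr2: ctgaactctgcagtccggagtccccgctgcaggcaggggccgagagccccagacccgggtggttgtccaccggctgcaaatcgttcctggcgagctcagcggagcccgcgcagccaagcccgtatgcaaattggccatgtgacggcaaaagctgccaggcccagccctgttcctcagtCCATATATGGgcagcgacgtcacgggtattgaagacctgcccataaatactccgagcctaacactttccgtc

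Zfp36 held 3 of the motifs searched. They are an EGR site (GCGNGGGCG) that begins 105 bases before the start, a CArG box at 58 bases and a STAT spacing motif (TTCNNNGAA) at 17 bases. Egr2 held a CArG box 72 bases before the start, and Junb held no match. On both strands of 32817 windows of the same length, 1.47% held a CArG box, 4.70% the EGR site, 7.01% the STAT spacing motif, 12.4% the TATA motif TATAAA, 6.75% the AP-1 site TGANTCA and 1.55% the cAMP response element TGACGTCA. RefSeq windows were matched for 8 of the 10 genes, 12 windows in all, and those of Egr1 and Egr3 were not used here. Besides the matches in the printed windows, Fosb held the EGR site, 50 bases before its start, Fos the TATA motif at 33 bases, and the other Egr2 windows CArG boxes in 3 of 4 cases. Of these, the boxes 73 and 133 bases before their starts are the printed Egr2 box, seen from other start sites. The box of the window that begins at position 67537316 is a different one. None of the 12 windows held the AP-1 site or the cAMP response element as spelled here. A match is a description of the letters and not evidence of a bound site.

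The JUN family supplies the usual partner of FOS proteins in AP-1 dimers. Junb (probe ILMN_1220034), whose product is a weaker activator than JUN and restrains myeloid progenitor expansion in mice, read 899.9 and 865.7 in FLT3-ITD against 617.2 and 510.3 in pMIG before any correction. Its log2 signals were 9.78 and 9.57 in FLT3-ITD against 8.90 and 8.85 in pMIG. The nearest arrays of the groups were 0.66 apart, and the SD within a group was 0.15 in FLT3-ITD and 0.03 in pMIG (n = 2 each). The difference was 0.79 (SE 0.13, 1.73-fold, 95% interval 1.37 to 2.18), above the signed difference of 98.3% of all genes. It did not pass in limma (adjusted p = 0.125) and passed with limma's variance trend (adjusted p = 3.74e-06). Over 15 alternatives its adjusted p in limma lay between 1.32e-06 and 0.411.

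Jun (ILMN_2646625) encodes the founding AP-1 protein, a target and substrate of JNK. It read 196.1 and 228.1 in FLT3-ITD against 187.3 and 152.8 in pMIG, and as log2 signal 6.96 and 7.17 in FLT3-ITD against 6.56 and 6.30 in pMIG. Both FLT3-ITD arrays were higher, by 0.40 at the closest, with an SD of 0.14 in FLT3-ITD and 0.19 in pMIG (n = 2 each). The difference was 0.64 (SE 0.15, adjusted p = 0.176 in limma) and 0.36 without background correction. Jund (ILMN_2682788), the family member that most cells express without stimulation, read 136.7 and 145.8 in FLT3-ITD against 153.7 and 126.4 in pMIG, so the pMIG arrays bracketed the FLT3-ITD arrays. So did the log2 signals, 5.95 and 5.99 in FLT3-ITD against 6.02 and 5.61 in pMIG. Its difference was 0.15 (95% interval -0.29 to 0.60), or -0.05 without pMIG replicate 2. Whether Junb and Jund differ in their response was not tested.

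FOS proteins form AP-1 mainly by pairing with a JUN partner. Fos (ILMN_2750515), the classical first responder to serum, read 724.9 and 835.2 in FLT3-ITD against 660.0 and 580.2 in pMIG. Its log2 signals were 9.42 and 9.51 in FLT3-ITD against 9.01 and 9.07 in pMIG, with an SD of 0.06 in FLT3-ITD and 0.04 in pMIG (n = 2 each). The groups did not overlap. The difference was 0.42 (SE 0.11, 1.34-fold, 95% interval 1.10 to 1.64). It did not pass in limma (adjusted p = 0.187) and passed with the variance trend (adjusted p = 0.00491, the lowest of the alternatives, which reached 0.422).

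Fosb (ILMN_2778279), a relative of Fos induced by the same signals, read 176.4 and 166.1 in FLT3-ITD against 156.8 and 139.4 in pMIG. On the log2 scale these were 6.70 and 6.38 in FLT3-ITD against 6.08 and 5.99 in pMIG, with an SD of 0.23 in FLT3-ITD and 0.06 in pMIG (n = 2 each) and 0.30 between the nearest arrays of the groups. The difference of 0.50 (95% interval 0.10 to 0.91) passed under none of the 15 alternatives (adjusted p = 0.108 to 0.461) and was 0.25 without background correction. Atf3 (ILMN_2619408), a stress-induced repressor that pairs with JUN proteins, read 171.9 and 202.3 in FLT3-ITD against 197.8 and 163.0 in pMIG. On the log2 scale it read 6.63 and 6.88 in FLT3-ITD against 6.70 and 6.49 in pMIG. Its groups overlapped, with a difference of 0.16 (95% interval -0.23 to 0.56, adjusted p = 0.624 in limma). Folds above 1.47 lie outside that interval.

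Among the EGR genes, Egr1 and Egr2 stood apart between the groups and Egr3 did not. Egr1 (ILMN_2662926), a factor that favours the macrophage lineage in myeloid progenitors, read 7257.8 and 8551.0 in FLT3-ITD against 6479.9 and 4960.3 in pMIG. Its log2 signals were 12.85 and 13.02 in FLT3-ITD against 12.53 and 12.33 in pMIG. The nearest arrays of the groups were 0.31 apart, and the difference was 0.50 (SE 0.14, 1.42-fold, 95% interval 1.10 to 1.82). The SD was 0.12 in FLT3-ITD and 0.14 in pMIG (n = 2 each). Its adjusted p was 0.190 in limma and 9.21e-05 with the variance trend, and between 1.87e-05 and 0.443 in all alternatives. This probe is far above background, and the difference was 0.49 without background correction.

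Egr2 (ILMN_2623983), which acts with Egr1 in macrophage differentiation, read 351.1 and 382.1 in FLT3-ITD against 304.0 and 253.9 in pMIG. As log2 signal it read 8.18 and 8.19 in FLT3-ITD against 7.64 and 7.54 in pMIG, with an SD of 0.01 in FLT3-ITD and 0.07 in pMIG (n = 2 each). The groups were 0.54 apart at their nearest. The difference was 0.60 (SE 0.11, 1.51-fold, 95% interval 1.24 to 1.85), with an adjusted p of 0.144 in limma and 0.00388 with the variance trend (alternatives 0.00233 to 0.411). Egr3 (ILMN_2653543), a target of T cell receptor signals that restrains T cell activation with Egr2, lay close to background. It read 122.7 and 116.6 in FLT3-ITD against 114.4 and 113.6 in pMIG, with the highest detection p of any of the 10 genes, 0.00132 on pMIG replicate 1. Its log2 signals were 5.53 and 5.15 in FLT3-ITD against 4.94 and 5.15 in pMIG. The raw intensities stood apart by a small step and the log2 signals did not. The difference of 0.29 (95% interval -0.18 to 0.76) was 0.09 without background correction, and its interval holds both 0 and the 0.60 of Egr2.

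Zfp36 (ILMN_3162407) encodes the protein that binds AU-rich elements in cytokine messages and recruits the deadenylation machinery. It read 2011.4 and 2237.8 in FLT3-ITD against 1503.3 and 1366.9 in pMIG. The log2 signals were 11 and 11.04 in FLT3-ITD against 10.32 and 10.43 in pMIG, which left 0.57 between the nearest arrays of the groups and an SD of 0.03 in FLT3-ITD and 0.08 in pMIG (n = 2 each). The difference was 0.64 (SE 0.11, 1.56-fold, 95% interval 1.27 to 1.92). It had an adjusted p of 0.138 in limma and 2.82e-06 with the variance trend (alternatives 1.4e-06 to 0.411). Leaving out any 1 array kept it between 0.59 and 0.69.

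The fits with and without the variance trend gave the same differences and unlike standard errors. A single prior for all genes carried 2.60 degrees of freedom, against 23.5 with the trend. The trend narrowed the standard error of the bright probes, from 0.13 to 0.10 for Junb, 0.14 to 0.08 for Egr1 and 0.11 to 0.08 for Zfp36. It widened that of dim probes, from 0.15 to 0.22 for Fosb and 0.18 to 0.28 for Egr3. Fos, Jun, Junb, Egr1, Egr2 and Zfp36 passed with the trend. The smallest p that an exact permutation test of 2 FLT3-ITD and 2 pMIG arrays allows is 0.333, and every call therefore uses the variance limma pools over genes.

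**Figure D2:**
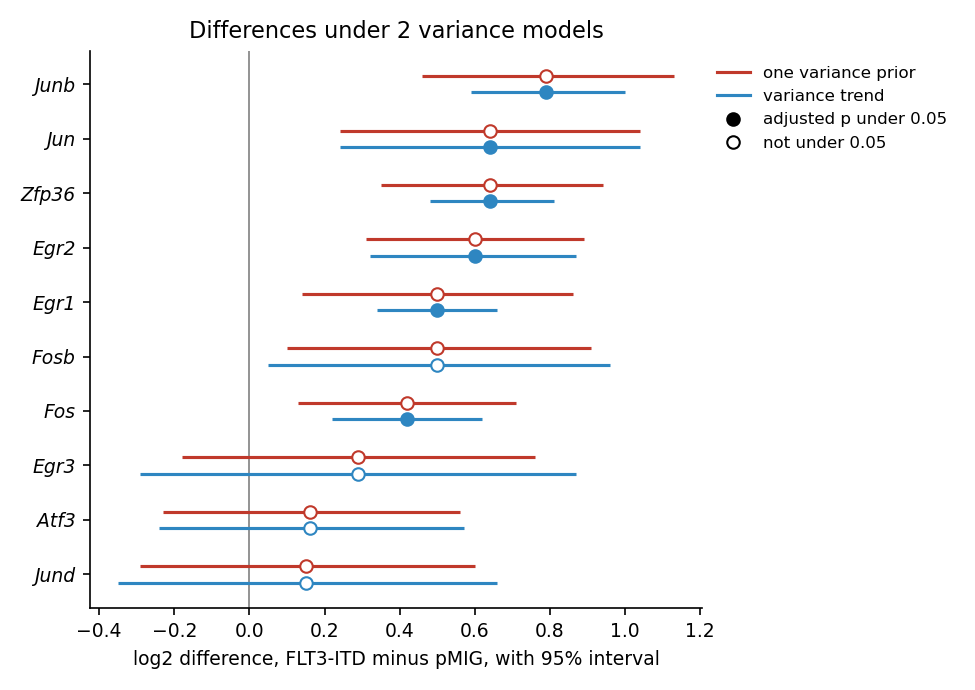
Log2 difference (FLT3-ITD minus pMIG) of each gene with its 95% interval, from limma with one variance prior (upper line of each pair) and with a variance trend (lower line). Filled points have an adjusted p under 0.05, and only the trend gives any, for 6 genes.

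Other genes of the same response were read from lists chosen by function, with earlier results known. Of 21 tested genes in a list of other immediate early genes, 0 passed in limma, 5 had an unadjusted p under 0.05, all higher, and 6 passed with the variance trend, all higher. The shares over all genes were 8.93% and 5.07% higher, and 18.0% and 10.3% in either direction. Both FLT3-ITD arrays stood above both pMIG arrays for 9 of the 21 (23.8% of all genes) and below them for 5 (2666 of all 9948 genes). Those 5 were Rhob (-0.38), Myc (-0.32), Gadd45b (-0.21), Gadd45a (-0.07) and Nr4a3, which was detected on neither FLT3-ITD array. The median difference of the 21 was 0.15, or 0.05 without background correction. Gadd45g, a growth arrest gene that activates p38 and JNK, differed by 0.81, Csrnp1 by 0.54, the polo-like kinase gene Plk3 by 0.51 and the zinc finger factor gene Klf6 by 0.47 (adjusted p = 0.113, 0.154, 0.169 and 0.182). Another 6 of the list had probes that did not pass the detection filter, among them Nr4a1, Arc and Ptgs2.

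ERK feedback genes had a median of 0.27 (0.13 without background correction) over 9 tested, with 0 passing. An unadjusted p under 0.05 was found for 4, all higher, against 8.93% of all genes. Those 4 were Phlda1 at 0.98, the ETS factor genes Etv4 at 0.73 and Etv5 at 0.51, and the MAP kinase phosphatase gene Dusp1 at 0.30. Without background correction Etv4 differed by 0.27 and Etv5 by 0.24. Partners of AP-1 had a median of 0.00 (up to 0.16, without FLT3-ITD replicate 1) over 13 tested, with 0 passing. At an unadjusted p under 0.05, 2 were higher and 1 lower, against 18.0% of all genes in either direction. Crem, a cAMP-responsive repressor, differed by 0.93, but its probe was detected on 1 of 2 pMIG arrays and its second probe differed by 0.08. Batf2 differed by 0.73 (0.23 without background correction), while Jdp2, a repressor of AP-1, differed by -0.44 and Atf4 by -0.24, with both FLT3-ITD arrays below both pMIG arrays for Jdp2 and Atf4.

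Of serum response factor, its ETS partners and the EGR cofactors 6 were tested, with 0 passing in limma, 0 at an unadjusted p under 0.05 and a median of 0.06. With 1 array left out that median lay between -0.05 (without pMIG replicate 2) and 0.17 (without FLT3-ITD replicate 2). Srf differed by 0.05 (95% interval -0.27 to 0.38), Elk3 by 0.19, Elk4 by 0.14 and Mkl1 by 0.08. In the MAP kinase cascade 0 of 15 passed in limma, with a median of 0.00. At an unadjusted p under 0.05, 4 were higher and 3 lower, against 18.0% of all genes in either direction. With the variance trend 3 passed higher and 2 lower, against 10.3% of all genes in either direction. Mapk13 differed by 0.75 and the kinase gene Rps6ka3 by 0.74, whereas Mapk8, which encodes JNK1, differed by -0.57. Without background correction Rps6ka3 differed by 0.43 and Mapk8 by -0.33. The brighter Map2k6 probe was detected on neither FLT3-ITD array, and the other one differed by 0.06.

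Genes that AP-1 and EGR proteins are known to activate had a median of 0.34 (0.18 without background correction). Of 15 tested, 2 passed in limma, both higher, where 0.181% of all genes passed and were higher. At an unadjusted p under 0.05, 6 were higher and 1, Vegfa at -0.34, was lower, against 18.0% of all genes in either direction. The variance trend also gave 6 higher and 1 lower, against 10.3% of all genes. Timp1, the metalloproteinase inhibitor, rose by 3.94 on the log2 scale and Il1b, which encodes interleukin-1β, by 2.27 (adjusted p = 0.00535 and 0.00975 in limma). With any 1 array left out, 0 genes passed in limma, these included. Mmp9 differed by 0.92 and Ccnd1, the cyclin D1 gene, by 0.86. Messages that ZFP36 is known to destabilise had a median of 0.73, or 0.42 without background correction. Of 13 tested 1, Il1b, passed in limma and was higher, against 0.181% of all genes. Of the 13, 9 had an unadjusted p under 0.05, all higher, against 8.93% of all genes. Those 9 include Il10, which was detected on neither pMIG array, and Il1a, which was detected on 1 of 2 pMIG arrays. Beside Il1b, the chemokine genes Ccl4 and Ccl3 differed by 1.36 and 0.89, and Il1a by 1.35, or by 0.45 without background correction. Il10 went undetected in pMIG, so it passed the detection filter only through the FLT3-ITD arrays. Its FLT3-ITD signal was 2.43-fold the floor used for pMIG, as a point value, and its adjusted p was 0.141 in limma. Without background correction Il10 differed by 0.42 on the log2 scale. Tnf, the classical ZFP36 target, differed by 0.33. ZFP36 relatives and decay partners had a median of -0.07, with 0 of 7 passing in limma. Against 18.0% of all genes in either direction, 1 was higher and 1 lower at an unadjusted p under 0.05. Those were Zfp36l1 at 0.41 and Zfp36l2 at -0.38, whose probe was detected on 1 of 2 FLT3-ITD arrays, and Khsrp differed by 0.32. These lists share genes with each other and are not separate evidence.

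**Figure D3:**
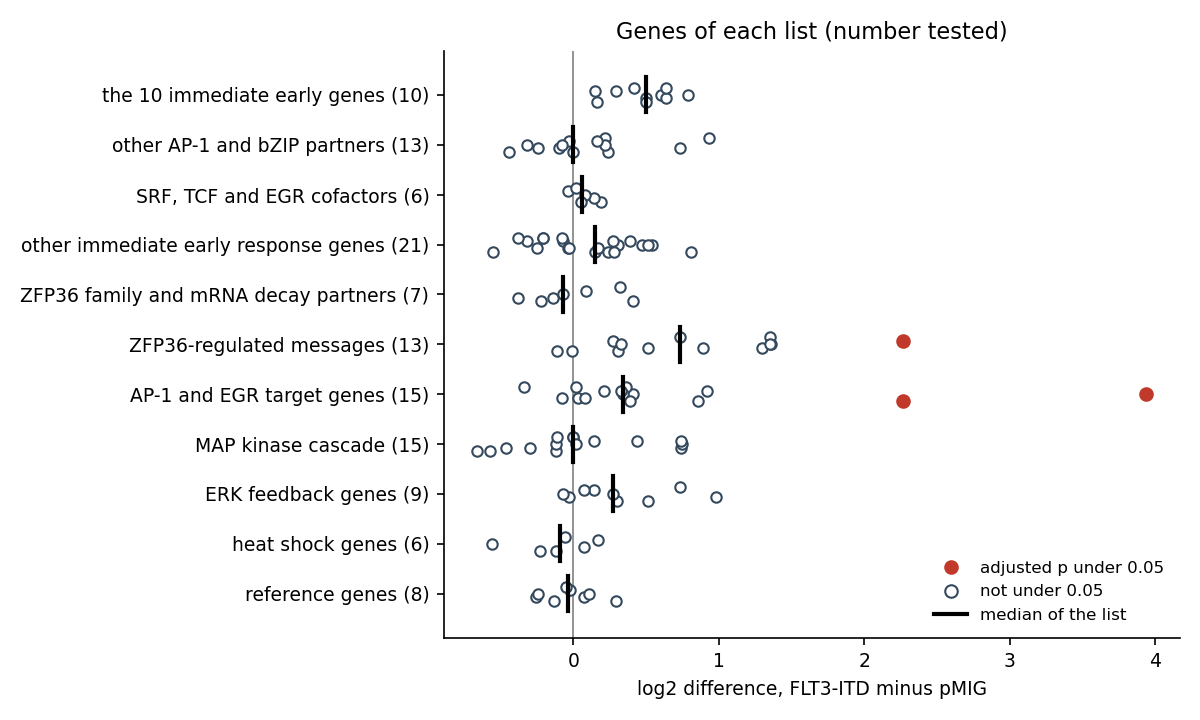
Log2 difference (FLT3-ITD minus pMIG, horizontal axis) of every tested gene in 11 lists, with the number tested in brackets and a bar at each list's median. The 10 immediate early genes lie between 0.15 and 0.79, and the filled points, which passed in limma, are Timp1 and Il1b, with Il1b in 2 lists.

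Immediate early genes also respond to cell handling, and their levels differ between blood cell types. Heat shock genes had a median of -0.09, with 0 of 6 passing in limma and 1, Hspa8, at an unadjusted p under 0.05. Such a p was found for 18.0% of all genes in either direction. In 2 of the 6 both FLT3-ITD arrays stood below both pMIG arrays, as they did for 2666 of all 9948 genes. Hspa8 read 10.72 and 10.64 in FLT3-ITD against 11.30 and 11.17 in pMIG. Dnajb1 read 10.78 and 10.77 in FLT3-ITD against 11 and 11.01 in pMIG. The groups overlapped for the other 4, among them Hspe1 at -0.12 and Hspb1 at 0.17. Any part of cell handling was not tested. Hspa1a was not detected by the filter. Reference genes had a median of -0.04, with 0 of 8 passing in limma and 1 at an unadjusted p under 0.05, against the same 18.0%. Of the 8, 3 stood apart higher and 3 lower, where 50.6% of all genes stood apart in either direction. Actb, itself a serum response factor target, differed by 0.29, Tbp by -0.26, Ywhaz by -0.24 and Rplp0 by -0.13. Other detected Actb probes differed by 0.30, 0.63, 1.06 and 1.13, and none of them passed in limma.

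The summed log2 signal of 14 neutrophil markers was 17.33 and 17.33 in FLT3-ITD against 17.33 and 17.32 in pMIG, a sum weighted to the brightest probes. Single markers lay on both sides, with 4 higher and 3 lower at an unadjusted p under 0.05 and 4 higher and 5 lower with the variance trend. The shares of all genes were 18.0% and 10.3% in either direction. Cxcr2 differed by 1.46, Mmp9 by 0.92, Mmp8 by 0.56 and Lcn2 by 0.40, against -0.43 for Mpo, -0.33 for Ctsg and -0.30 for Prtn3. The 10 monocyte and macrophage markers summed to 15.27 and 15.29 in FLT3-ITD against 15.47 and 15.50 in pMIG, but their median was -0.02. Of these 4 stood apart higher and 2 lower, against 50.6% of all genes in either direction. Fcgr1 differed by 0.93 (0.40 without background correction), Itgam by 0.25, Lyz2 by -0.35 and Lyz1 by -0.21.

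Dendritic and MHC class II markers had a median of 0.98 over 9 genes, with 0 passing in limma, 5 at an unadjusted p under 0.05 and 5 passing with the variance trend, all higher. They summed to 13.72 and 13.72 in FLT3-ITD against 12.42 and 12.51 in pMIG. Those 5 were the MHC class II genes H2-Ab1, H2-Eb1, Cd74 and H2-Aa and their activator Ciita. At an unadjusted p under 0.05 and with the trend, 8.93% and 5.07% of all genes were higher. The dendritic cell genes Batf3, Siglech and Zbtb46 differed by 0.22, 0.17 and 0.30, and Xcr1 and Clec9a did not pass the detection filter. B lymphoid markers summed to 10.67 and 10.74 in FLT3-ITD against 9.77 and 9.80 in pMIG. Of these 6 of 7 had an unadjusted p under 0.05, all higher, against 8.93% of all genes. Vpreb3 passed narrowly (adjusted p = 0.0497 in limma), where 0.181% of all genes passed and were higher. The median of the B lymphoid markers was 0.96, or 0.34 without background correction.

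Mast cell, basophil and eosinophil markers had a median of -0.48, with 0 of 13 passing in limma and 8 lower at an unadjusted p under 0.05. Such a p was found for 18.0% of all genes in either direction. Megakaryocyte markers had a median of -0.81 (-0.45 without background correction), with 6 of 9 lower and 2 higher at an unadjusted p under 0.05. Alox12 (-1.83) and Treml1 (-1.40) passed in limma, where 0.0201% of all genes passed and were lower. Without background correction Alox12 differed by -0.77 and Treml1 by -1.10. The median of T and natural killer markers was -0.11, or -0.33 without FLT3-ITD replicate 2. Of 6 tested, 2 stood apart higher and 3 lower, against 50.6% of all genes in either direction. Klrd1 alone passed in limma, at 1.89 (1.01 without background correction), where 0.181% of all genes passed and were higher. Il2rb, also higher, was detected on neither pMIG array. Nkg7 differed by -0.47, Cd3d by -0.38 and Prf1 by -0.19. Erythroid markers had a median of -0.20, or -0.08 with FLT3-ITD replicate 1 or replicate 2 left out, with Hba-a1 at 1.29 and Epor at -0.64. Stem and progenitor markers had a median of -0.37, or -0.16 without background correction, with 0 of 9 passing in limma and 4 lower at an unadjusted p under 0.05. The part of these shifts in the immediate early genes was not tested. In bulk RNA, more cells of a type and more RNA per cell cannot be told apart.

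Over the 4 arrays, the genes whose mean-centred log2 profile lay nearest to that of Junb by Euclidean distance were Gabrp (0.0387), Cd40 (0.0726), Upp1 (0.0737), Ercc2 (0.0794) and Sesn2 (0.0832). Upp1, a uridine phosphorylase gene, read 10.17 and 10 in FLT3-ITD against 9.30 and 9.18 in pMIG. Cd40, a costimulatory receptor gene, read 5.97 and 5.79 in FLT3-ITD against 5.03 and 5.07 in pMIG. In all, 63 of 9947 genes lay within 0.2 of Junb, so a profile of 4 arrays does not single out these 5.

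Omitting background correction lowered the difference of all 10 genes. Those of Jun, Fosb, Egr3, Jund and Atf3 were 0.36, 0.25, 0.09, 0.06 and 0.09 without it, against 0.64, 0.50, 0.29, 0.15 and 0.16 with it. Junb, Zfp36, Egr2, Egr1 and Fos differed by 0.70, 0.61, 0.45, 0.49 and 0.37 without it, against 0.79, 0.64, 0.60, 0.50 and 0.42 with it. All 15 alternatives kept 9 of the 10 genes higher in FLT3-ITD, and Jund was the exception.

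**Figure D4:**
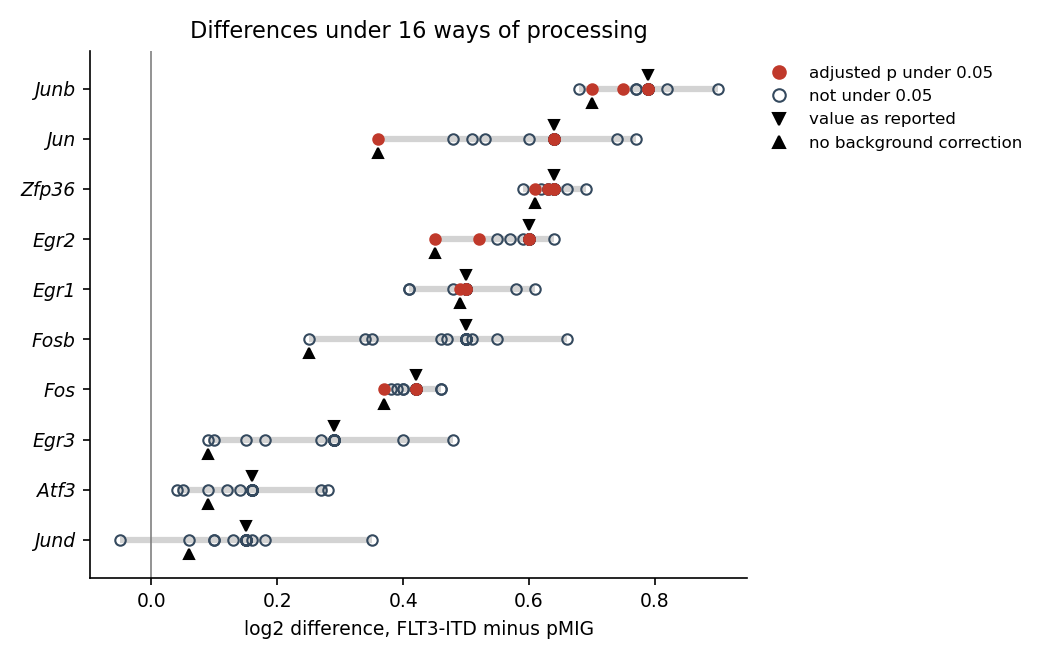
Log2 difference (FLT3-ITD minus pMIG) of each gene under the reported setting and 15 alternatives, where filled circles passed an adjusted p of 0.05. Fosb, Egr3, Atf3 and Jund passed under none, and Jund alone crosses 0.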

How the data were processed

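The table the authors deposited gives, for 26512 probes and 4 arrays, an intensity that was not normalized. A detection p-value stands beside each in the deposited table, and how it was computed is not stated. Per the labels' protocols, biotinylated cRNA was hybridised to Illumina arrays. A second table deposited by the authors holds log2 values whose making is not stated. They kept the order of the intensities (rank correlation 1) with a largest difference of 0.232 from the log2 values below, and served only as an alternative.

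Background correction used limma 3.58.1 (R 4.3.3, statmod 1.5.0) and its normexp model, whose background mean and SD were inferred through the detection p-values. An offset of 16, log2 and quantile normalization followed. The inference assumes that the detection p falls as intensity rises, which does not hold for every probe. Probes with a detection p under 0.05 on at least 2 of 4 arrays were kept (14178). The probe with the highest mean signal stood for its gene, giving 9948 genes. In the platform annotation 24279 probes had 1 symbol, 0 had several and 2233 had none. Groups, taken from sample titles, were compared with lmFit and eBayes, in two-sided tests adjusted by Benjamini-Hochberg across the 9948 genes at a threshold of 0.05. The number of arrays limits the precision.

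Genes, lists and tests were chosen with earlier results of these data known. Named genes are the 10 genes, up to 4 tested genes of smallest p in each list, and the 5 nearest profiles. Any other gene named was chosen after its values were seen. A gene below detection on every array of a group is given against a floor, taking in that group the lowest detected signal or its own, whichever is higher. The fold over that floor is a point value and does not take in the spread between arrays. Alternatives changed the background step, offset, scaling, filter, probe rule, variance model, pairing and arrays. The fit without the variance trend was also run on simulated data, with variances drawn from its own prior. The planted shifts were larger than the differences of the 10 genes, so neither the trend nor shifts of that size were tested.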

Additional observations from a re-analysis of the deposited data

How the results depend on the processing

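Main counts were 20 of 9948 genes (18 higher, 2 lower), 15 of 14178 probes and 0 of the 10 immediate early genes. Without background correction 898 genes (456 higher, 442 lower), 963 probes and 6 of the 10 passed, with an offset of 50 391, 408 and 3, with a variance trend 1020 (504 higher, 516 lower), 1123 and 6, and with trend and robust fit 1041, 1183 and 6. The authors' deposited log2 values gave 38 genes and 45 probes, median centring 71 and 97, and detection on all 4 arrays 71 and 85. No filter on dim probes gave 11 genes, the mean of probes 41 and a robust fit 13. In these 6 settings 0 of the 10 genes passed, with 6 or 7 at an unadjusted p under 0.05. With the replicate block 6 genes, 7 probes and 0 of the 10 passed. The numbers 1 and 2 were not shown to pair the samples (correlation of deviations -0.018). With any 1 array left out, from 0 to 0 genes and probes passed in limma, with 1104 to 1337 genes and 4 to 6 of the 10 at an unadjusted p under 0.05, and the lone array was assumed to vary like the other group. Jund was -0.05 without pMIG replicate 2 and at most 0.35 in the other omissions of 1 array. Why the counts moved was not tested. Signal over background limits Egr3, Jund, Fosb, Atf3 and Jun.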
